A study of Homo sapiens with 6 samples.

Results

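The 10 genes described here are feedback inhibitors of the RAS-ERK pathway and ETS factors that act at its end: the MAP kinase phosphatases DUSP1, DUSP4, DUSP5 and DUSP6, the Sprouty and SPRED proteins SPRY1, SPRY2, SPRY4 and SPRED1, and the transcription factors ETV4 and ETV5. They were taken by symbol from the 62696 genes counted in each library, and all 10 had enough counts to be tested. The libraries come from DMS53, an established small cell lung cancer (SCLC) line with neuroendocrine (NE) features. In 3 cultures the cells carried an empty lentiviral vector (control) and in the other 3 a lentiviral vector for constitutive expression of ONECUT2 (OC2-OE), both selected with puromycin. The control vector encodes green fluorescent protein, and the introduced OC2 is tagged with it. All 6 libraries stem from 1 cell line, from 3 experiments a group that the study calls independent, and whether these were separate transductions is not stated in the sources used here, so the p-values measure the spread between these cultures.

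Growth factor receptors pass their signal through RAS and RAF kinases to MEK and then to ERK, which enters the nucleus and switches on genes. Among the genes that follow ERK activity most closely are its own brakes, so their mRNA is widely read as a sign of pathway output. The DUSP phosphatases remove phosphate from MAP kinases, the Sprouty and SPRED proteins act further up, between receptor, RAS and RAF, and ETV4 and ETV5 belong to the PEA3 group of ETS factors, which carry growth factor signals into transcription. The repressor capicua, encoded by CIC, holds several of these genes down until ERK phosphorylates it.

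Promoter windows from RefSeq on GRCh38.p14, reaching from 250 bases before to 50 bases after an annotated start, were matched for 6 of the 10 genes, with 9 windows in all. The genes DUSP4, DUSP5, ETV4 and ETV5 had no window. Each was searched on both strands for the capicua octamer (TGAATGAA, TGAATGGA, TCAATGAA or TCAATGGA), the cyclic AMP response element CRE (TGACGTCA) and its core TGACGT, an ETS site (CCGGAAGT), an AP-1 site (TGACTCA) and an ONECUT site (ATCGAT or ATCAAT). A match to CRE holds the core on both strands, so the counts for these overlap. The 250 bases before the start are shown for DUSP6 and SPRY1, whose expression fell most, and for DUSP1, the most highly expressed of the genes, from 5′ to 3′ on the strand of the gene. In DUSP6 (chr12:89352502-89352751, minus strand) capitals mark the capicua octamer, read on the opposite strand. In DUSP1 (chr5:172771196-172771445, minus strand) they mark the CRE core and the full CRE. SPRY1 is shown at the first of its 2 annotated starts (chr4:123396545-123396794, plus strand), with no match to mark.
DUSP6: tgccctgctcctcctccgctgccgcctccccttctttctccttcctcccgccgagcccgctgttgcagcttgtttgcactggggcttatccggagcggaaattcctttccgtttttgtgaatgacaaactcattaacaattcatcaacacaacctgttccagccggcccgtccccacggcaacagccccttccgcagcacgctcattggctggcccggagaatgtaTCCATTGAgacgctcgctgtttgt
DUSP1: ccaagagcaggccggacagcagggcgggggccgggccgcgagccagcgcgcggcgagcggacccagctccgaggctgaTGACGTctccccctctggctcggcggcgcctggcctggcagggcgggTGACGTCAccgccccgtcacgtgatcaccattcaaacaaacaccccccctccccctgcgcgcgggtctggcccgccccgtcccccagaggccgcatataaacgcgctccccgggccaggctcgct
SPRY1: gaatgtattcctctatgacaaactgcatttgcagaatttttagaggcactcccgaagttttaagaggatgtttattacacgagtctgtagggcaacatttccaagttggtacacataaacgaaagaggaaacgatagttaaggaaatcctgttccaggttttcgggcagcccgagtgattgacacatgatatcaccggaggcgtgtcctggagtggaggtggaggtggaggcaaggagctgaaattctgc

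The DUSP6 window held 2 capicua octamers, at positions -24 to -17 and 2 to 9 relative to the start, and no other window of these genes held one. Over all 35116 windows of this length, 3.77% held at least 1. DUSP1 held 1 full CRE, at -125 to -118, and a further core at -172 to -167, against 1.85% of all windows with a full CRE and 7.98% with the core. The ETS, AP-1 and ONECUT sites were in 0 of the 9 windows and in 4.14%, 4.95% and 6.96% of all windows. These matches describe the letters in the windows only.

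The libraries held 16533284 to 19099337 counted read pairs, and replicates of a group differed by 1.32 to 1.99 times the variance of sampling alone. ONECUT2, the introduced gene, had 394 to 465 counts in the control libraries and 68853 to 74031 in the OC2-OE libraries, as the labels state. All 10 NE markers of a list were present in every library, with 103 counts as the lowest value, that of GRP in OC2-OE. GRP itself fell from 6830 summed counts in control to 341 in OC2-OE. In the edgeR test described below, 7 of these markers fell and 3 rose at an adjusted p under 0.001. That is 100% called, against 56.5% of all tested genes. Of 8 leukocyte markers, CD3E and AIF1 had 0 counts throughout and PTPRC at most 1, while the summed list ran from 4.01 to 4.72 CPM in control and from 7.62 to 9.17 CPM in OC2-OE, mostly from CD14 (185 and 321 summed counts) and LYZ (21 and 122), which both rose. The 8 fibroblast markers summed to 21.4 to 23.9 and 28.4 to 32.2 CPM, with THY1 at 0 and nearly all of it from COL1A1, and the 6 endothelial markers to 13.4 to 15.3 and 4.28 to 4.96 CPM, mostly from KDR in control and PECAM1 in OC2-OE. The part of these lists in the results was not tested.

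To ask whether enforced OC2 expression altered the feedback genes, counts were compared between groups with edgeR's quasi-likelihood test over all 17307 tested genes. Of the 10 genes, 4 fell in OC2-OE cells at an adjusted p under 0.001 (SPRY1, DUSP6, ETV4 and SPRED1), 1 rose (DUSP4), and 5 did not pass (DUSP1, DUSP5, SPRY2, SPRY4 and ETV5). Changes were widespread in these cells: 56.5% of all tested genes passed, 27.8% higher and 28.7% lower, so the share of 50% among the 10 genes lies near the background. The split by direction depended on scaling. It was 4810 genes higher and 4966 lower here, 5256 and 4521 with upper-quartile normalization, and 5337 and 4427 with library size only. The median log2 fold change of the 10 genes was -0.25, against 0.01 for all tested genes, and their median absolute change was 0.33 against 0.38. The 10 genes together summed to 400 to 422 CPM in the control libraries and to 348 to 364 CPM in the OC2-OE libraries, where CPM is the count per 1e6 counts of the library after TMM normalization. In bulk RNA, fewer cells that express a gene and less of its RNA per cell cannot be told apart.

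**Figure D1:**
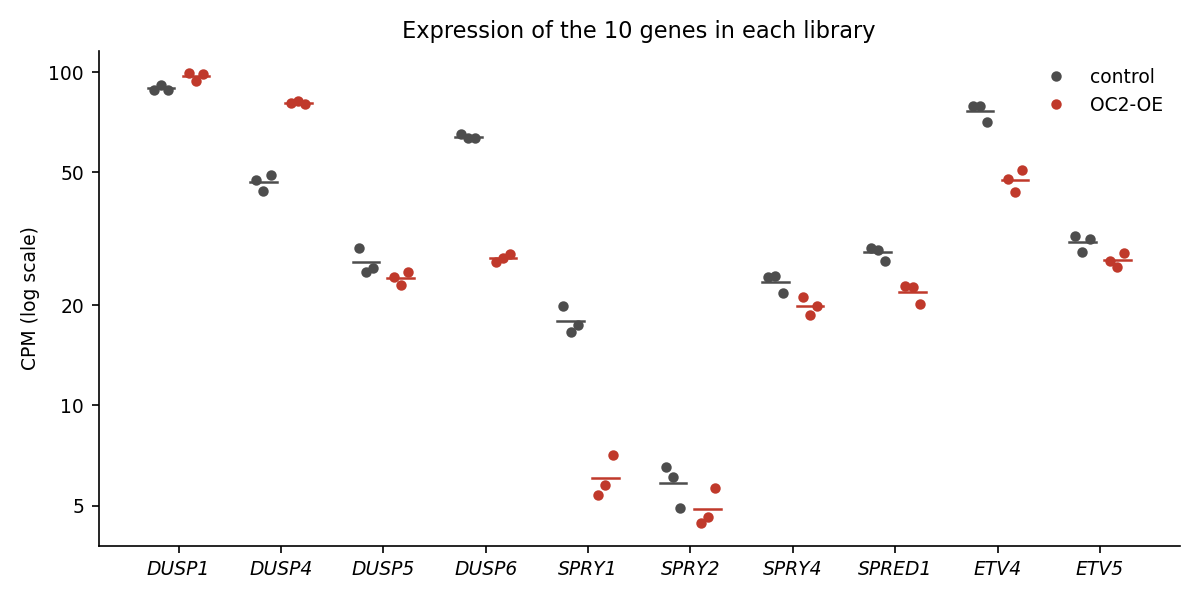
Expression of the 10 genes in CPM on a log axis, with 1 point for each of 3 control and 3 OC2-OE libraries and a line at the mean of the group. DUSP4 stands higher and DUSP6, SPRY1, ETV4 and SPRED1 lower in all OC2-OE libraries, and only for SPRY2 do the points of the groups overlap.

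In 9 of the 10 genes (90%) all OC2-OE libraries lay on one side of all control libraries, 2 higher and 7 lower, where 73.2% of all tested genes had groups that did not overlap. SPRY2 was the exception. Requiring a log2 fold change of at least 1 in size in addition left 2 of the genes, SPRY1 and DUSP6, against 17.3% of all tested genes. At a looser limit, an adjusted p under 0.05, 9 of the 10 genes and 71.4% of all tested genes passed.

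Among the phosphatases, DUSP6, the cytoplasmic phosphatase that acts on ERK itself, was the only one of the 4 that passed the test as lower. DUSP6 (ENSG00000139318.8, chromosome 12 from 89347235 to 89352501) had 65.1, 63.5 and 63.3 CPM in control replicates 1, 2 and 3 and 26.9, 27.8 and 28.4 CPM in OC2-OE replicates 1, 2 and 3. The lowest control value was more than double the highest OC2-OE value. The log2 fold change was -1.21 (standard error, SE, 0.052, adjusted p = 2.04e-44), a level that fell by 56.8%.

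DUSP4, a phosphatase of the nucleus that acts on ERK and other MAP kinases, went the other way. This gene (ENSG00000120875.9, chromosome 8 from 29333064 to 29350684) had 47.3, 44.1 and 48.9 CPM in the control libraries and 80.6, 81.9 and 80.1 CPM in the OC2-OE libraries. All OC2-OE values were well above the control values and close to each other. The rise came to 0.79 on the log2 scale (SE 0.044, adjusted p = 6.92e-34), or 72.8%.

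DUSP1 and DUSP5 moved little. DUSP1 (ENSG00000120129.6, chromosome 5 from 172768096 to 172771195), a nuclear phosphatase that also acts on the stress kinases JNK and p38, had 88.3, 91.5 and 88.5 CPM in control and 99.2, 93.7 and 98.7 CPM in OC2-OE. The groups did not overlap, but OC2-OE replicate 2 was only just above the highest control library. Its log2 fold change of 0.12 (SE 0.037, 95% confidence interval 0.05 to 0.20) did not pass 0.001 (adjusted p = 0.00246). It did pass with upper-quartile normalization (adjusted p = 4.81e-05), with library size only (2.28e-05) and without OC2-OE replicate 2 (0.000967). DUSP5 (ENSG00000138166.6, chromosome 10 from 110497907 to 110511533), a nuclear phosphatase specific for ERK, had 25.2 to 29.7 CPM in control and 22.9 to 25.1 CPM in OC2-OE. Its log2 fold change of -0.16 (95% confidence interval -0.29 to -0.03, adjusted p = 0.0254) did not pass, and without control replicate 1, the highest of its group, it was -0.08 (adjusted p = 0.327).

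**Figure D2:**
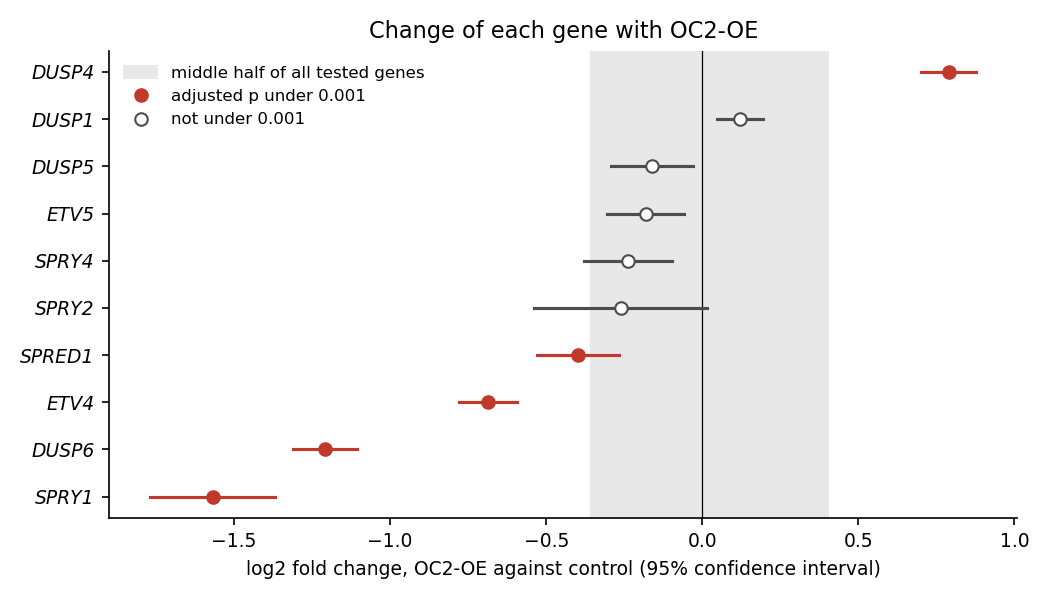
Log2 fold change of each gene in OC2-OE against control (points) with its 95% confidence interval (lines), filled where the adjusted p was under 0.001. The grey band spans the quartiles of all tested genes, from -0.36 to 0.40, and SPRY1, DUSP6 and ETV4 lie wholly below it and DUSP4 wholly above it.

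Of the Sprouty genes, whose products block the signal from receptor to RAF, only SPRY1 passed the test. SPRY1 (ENSG00000164056.11, chromosome 4 from 123396795 to 123403760) had 19.9, 16.6 and 17.4 CPM in the control libraries and 5.37, 5.77 and 7.08 CPM in the OC2-OE libraries. It had the lowest log2 fold change of the 10 genes, -1.57 (SE 0.10, adjusted p = 5.66e-29), a level that fell by 66.3%. OC2-OE replicate 3 was the highest of its group and still below the lowest control value.

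SPRY4 (ENSG00000187678.10, chromosome 5 from 142310427 to 142326455) had 24.3, 24.4 and 21.8 CPM in control and 21.1, 18.6 and 19.9 CPM in OC2-OE. The groups came close without overlap, and the log2 fold change was -0.24 (95% confidence interval -0.38 to -0.10, adjusted p = 0.00181). Without control replicate 3, the lowest of its group, it passed (log2 fold change -0.29, adjusted p = 0.000512). SPRY2 (ENSG00000136158.12, chromosome 13 from 80335976 to 80341126) was the least abundant of the 10 genes, with 304 counts summed over control and 268 over OC2-OE. Its CPM were 6.53, 6.10 and 4.92 in control and 4.44, 4.62 and 5.65 in OC2-OE, and the groups overlapped. The log2 fold change of -0.26 had a 95% confidence interval of -0.54 to 0.02 (adjusted p = 0.0862), so that at this depth a fall of 31.2% and no change were both within its bounds. It was -0.17 (adjusted p = 0.331) without control replicate 1, and -0.37 without control replicate 3 (adjusted p = 0.0242) or OC2-OE replicate 3 (adjusted p = 0.0359).

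SPRED1, which brings neurofibromin to the membrane to switch RAS off, fell by a smaller amount. SPRED1 (ENSG00000166068.13, chromosome 15 from 38252836 to 38357249) had 29.8, 29.3 and 27.2 CPM in control and 22.8, 22.7 and 20.1 CPM in OC2-OE. The groups were clearly apart, with a log2 fold change of -0.40 (SE 0.066, adjusted p = 6.19e-08), a level that fell by 24.1%. Its relative SPRED2, from the list of other brakes, rose by 0.27 on the log2 scale (adjusted p = 3.89e-10). SPRY3 had 13 and 10 counts in the 2 groups and was not tested. SPRED2, SPRY3 and the genes CIC, ERF and ETV1 below were named after their values were seen.

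Both ETV factors were expressed, and only ETV4 passed the test. ETV4 (ENSG00000175832.13, chromosome 17 from 43527844 to 43579620) had 79.0, 78.8 and 71.0 CPM in the control libraries and 47.7, 43.8 and 50.7 CPM in the OC2-OE libraries. The groups lay far apart, with a log2 fold change of -0.69 (SE 0.047, adjusted p = 2.07e-25), a level that fell by 37.9%. ETV5 (ENSG00000244405.8, chromosome 3 from 186046314 to 186110318) had 32.2, 28.9 and 31.5 CPM in control and 27.0, 26.0 and 28.7 CPM in OC2-OE. Here OC2-OE replicate 3 came within 1 CPM of control replicate 2. The log2 fold change was -0.18 (95% confidence interval -0.30 to -0.06), which did not pass (adjusted p = 0.00642). Of the exon bases of ETV5, 2.84% are shared with DGKG on the same strand, where read pairs are not assigned to either gene, and the other 9 genes share none.

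ETV1, the remaining PEA3 factor, was less abundant than either in CPM and rose from 11.2 ± 0.959 to 14.7 ± 0.395 CPM (SD of 3 libraries), a log2 fold change of 0.38 (adjusted p = 7.92e-05). CIC, which encodes capicua, rose from 75.1 ± 2.22 to 121 ± 0.220 CPM (SD of 3 libraries), a log2 fold change of 0.69 (adjusted p = 4.68e-36). ERF, an ETS repressor that ERK moves out of the nucleus, had a log2 fold change of 0.41 (adjusted p = 1.26e-11).

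Since TMM scaling cancels in a ratio of 2 genes from the same library, 4 pairs of related genes were compared this way. The log2 ratio of DUSP6 to DUSP4 counts was 0.45 ± 0.078 in control and -1.55 ± 0.045 in OC2-OE (SD of 3 libraries), so DUSP6 counts were 1.37 times those of DUSP4 before and 0.342 times after. For SPRY1 to SPRY2 the mean log2 ratio went from 1.62 ± 0.188 to 0.31 ± 0.027 (SD of 3 libraries), and for ETV4 to ETV5 from 1.30 ± 0.140 to 0.80 ± 0.039 (SD of 3 libraries). In these 3 pairs the groups did not overlap. The ratio of SPRY4 to SPRY2 was 2.01 ± 0.124 in control and 2.02 ± 0.217 in OC2-OE (SD of 3 libraries), and its libraries overlapped. A two-sided exact permutation test gave p = 0.1 for the first 3 pairs, the smallest value that 3 against 3 libraries allow (0.133 after Benjamini-Hochberg adjustment over 4 pairs), and p = 0.9 for SPRY4 to SPRY2.

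**Figure D3:**
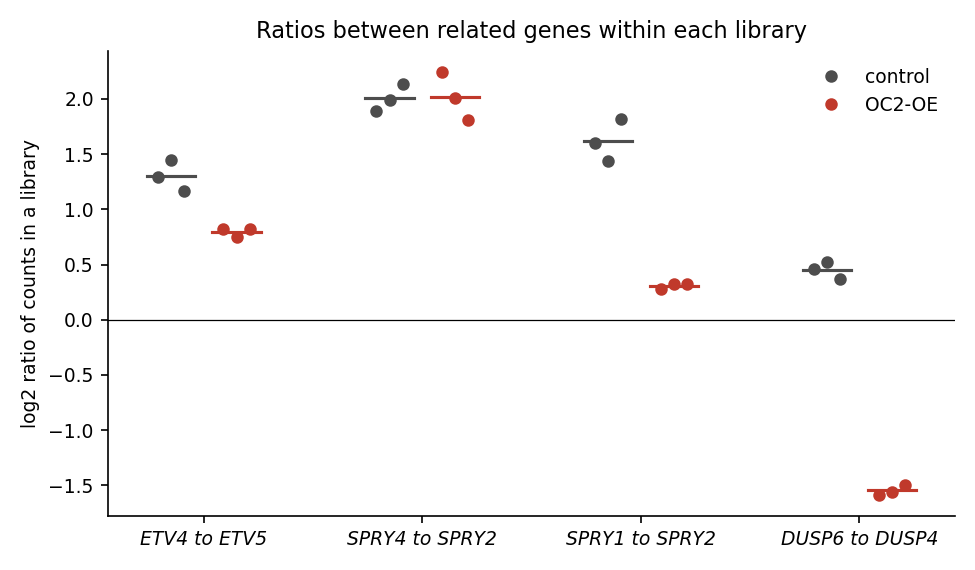
Log2 ratio of the counts of 2 related genes within each library, with points for 3 control and 3 OC2-OE libraries and a line at the mean of the group; 0 means equal counts. DUSP6 to DUSP4 crosses 0, from a mean of 0.45 to -1.55, while SPRY4 to SPRY2 stays at about 2.01.

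Levels of different genes were set side by side per length, as RPKM (CPM per kilobase of exon). DUSP1 stood first in both groups, with 44.4 ± 0.897 RPKM in control (SD of 3 libraries) and 46.6 to 49.3 RPKM in OC2-OE, followed by ETV4 with 21.7 ± 1.31 and 13.5 ± 0.986 RPKM. In control cells the order went on with DUSP6 (16.6 RPKM), DUSP5 (10.6), DUSP4 (6.43), ETV5 (5.35), SPRY1 (4.53), SPRED1 (3.71), SPRY4 (3.58) and SPRY2 (1.82). The ranges of ETV5 and SPRY1 over the libraries overlapped, as did those of SPRED1 and SPRY4, although within each control library ETV5 stood above SPRY1 and SPRED1 above SPRY4. In OC2-OE cells DUSP4 (11.1 RPKM) stood above and DUSP6 (7.17 RPKM) below DUSP5 (9.51 RPKM). SPRY1, at 1.53 RPKM, reached the level of SPRY2 at 1.53 RPKM, and the libraries of these genes overlapped, as did those of SPRY4 and SPRED1.

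**Figure D4:**
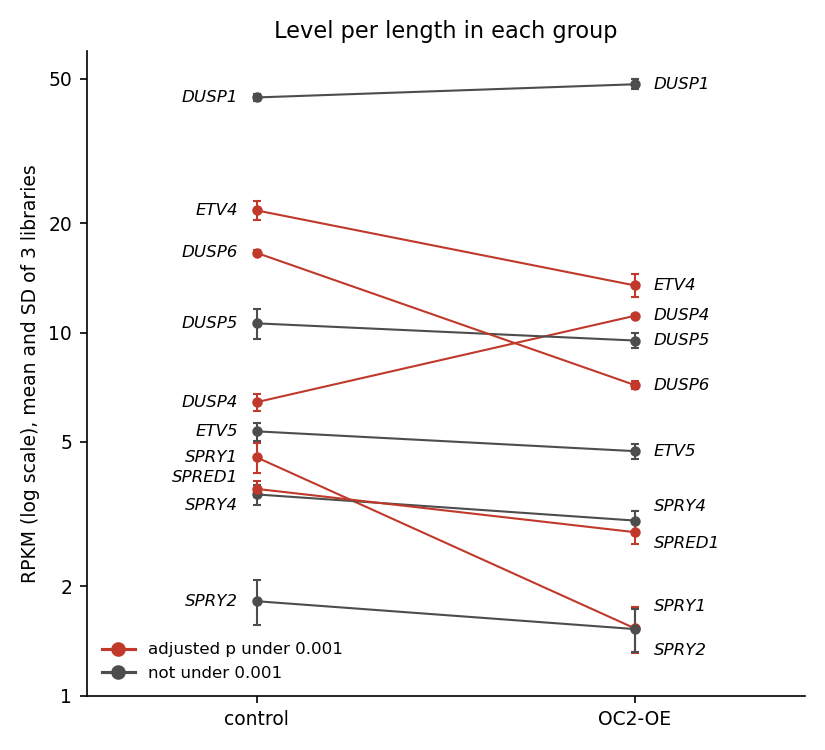
Mean level of each gene in RPKM (log axis) in control and OC2-OE cells, with bars for the SD of 3 libraries. DUSP6 and DUSP4 change places, from 16.6 and 6.43 RPKM to 7.17 and 11.1 RPKM, and SPRY1 drops to the level of SPRY2.

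By the Euclidean distance of centred log2 CPM over the 6 libraries, the tested genes whose pattern was most like that of SPRY1 were ASCL2 (distance 0.17), FAM72B (0.17) and PHYHIP (0.20). ASCL2 had 515 and 192 summed counts in control and OC2-OE, and the log2 fold changes of FAM72B and PHYHIP were -1.58 and -1.66. FAM72B has near-identical copies, which makes its count uncertain. With only 2 groups of libraries, this likeness says little beyond a fall of the same size.

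The rest of the pathway was read from lists chosen for their place in it. Of 18 growth factor receptors, 16 were tested, and 8 fell and 3 rose (median log2 fold change -0.27). The share called was 68.8%, against 56.5% of all tested genes, of which 27.8% were higher and 28.7% lower. RET, the receptor of the GDNF family of ligands, fell from 299 ± 6.77 to 50.6 ± 1.34 CPM (SD of 3 libraries), and PDGFRA, with 83 counts in control and 17 in OC2-OE, from 1.61 ± 0.331 to 0.314 ± 0.0985 CPM. FGFR2 rose from 1.30 ± 0.320 to 5.26 ± 0.324 CPM. PDGFRB is also on the fibroblast list. The summed receptors went from 1125 to 1161 CPM in control down to 672 to 693 CPM in OC2-OE.

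All 18 genes of the cascade from adaptors to ERK were tested, and 6 rose and 7 fell, each by less than 2-fold. The share called was 72.2%, against 56.5% of all tested genes. It was 6 higher and 5 lower with upper-quartile normalization, library size only, the DESeq2 Wald test or without OC2-OE replicate 1. Without OC2-OE replicate 3, 6 rose and 4 fell. KSR1, a scaffold that holds RAF, MEK and ERK together, moved farthest and fell from 69.6 ± 0.915 to 37.7 ± 1.23 CPM (SD of 3 libraries), a log2 fold change of -0.88. HRAS and ARAF, a RAS and a RAF protein, had log2 fold changes of -0.43 and 0.33. The median of the list was -0.07.

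Among 11 tested genes of 12 on a list of other brakes, 4 fell and 2 rose, with a median log2 fold change of -0.09. This share of 54.5% lies near the 56.5% of all tested genes. ERRFI1, an inhibitor of the EGF receptor, fell from 40.9 ± 0.976 to 20.1 ± 0.812 CPM (SD of 3 libraries), a log2 fold change of -1.02. IL17RD, a membrane inhibitor of FGF signalling, fell from 128 to 61 summed counts, a log2 difference of -1.15, and without control replicate 2 or OC2-OE replicate 1 it no longer passed (adjusted p = 0.00381 and 0.00182). CBL, a ubiquitin ligase for activated receptors, had a log2 fold change of -0.29. Neurofibromin, encoded by NF1, was at 103 ± 4.14 and 105 ± 2.05 CPM and did not pass (adjusted p = 0.46).

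The MAP kinase phosphatases beyond the 4 described above moved in both directions too, with 2 higher and 1 lower of 5 tested. That is 60% called, near the 56.5% of all tested genes. DUSP16, which acts mainly on JNK and p38, rose from 35.3 ± 0.946 to 119 CPM, a log2 fold change of 1.75. DUSP8, with the same preference, rose by 0.75 on the log2 scale, and DUSP10, also a phosphatase of p38 and JNK, fell from 65.5 ± 1.93 to 34.4 ± 1.82 CPM. DUSP9 had 12 and 9 counts and was not tested.

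Of 23 other ETS factors and their partners, all tested, 9 rose and 8 fell (median 0.09). This made 73.9% called, against 56.5% of all tested genes. With upper-quartile normalization or library size only, 10 rose and 6 fell. EHF, an epithelial ETS factor, rose from 7.06 ± 1.21 to 223 ± 2.36 CPM (SD of 3 libraries), a log2 fold change of 4.98. ETS1 fell from 208 ± 3.49 to 38.8 ± 1.54 CPM, a log2 fold change of -2.43, and ERG, known from endothelial cells, fell by 2.07 from 208 to 52 counts.

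Other genes known to respond to ERK did not follow a common direction. Of 14, 12 were tested, and 5 rose and 4 fell, with a median of 0.16. That is 75% called, against 56.5% of all tested genes. IER3, a short-lived survival factor that NF-kB also induces, rose from 22.5 ± 0.708 to 586 ± 2.38 CPM (SD of 3 libraries), a log2 fold change of 4.71. EPHA4, an ephrin receptor, fell from 28.7 ± 1.88 to 4.18 ± 0.403 CPM, and CCND1, the gene of cyclin D1, from 66.2 ± 0.795 to 27.9 ± 1.46 CPM, log2 fold changes of -2.78 and -1.24. EGR1, an immediate target of ERK, rose by 1.17 on the log2 scale (adjusted p = 1.14e-24), and FOS, with a log2 fold change of -0.07, did not pass (adjusted p = 0.578). EGR1, FOS and NF1 were also named after their values were seen.

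The kinases that ERK activates in turn, RSK, MSK and MNK, were all 8 tested, with 4 higher and 2 lower (median 0.32). Of these kinases 75% were called, against 56.5% of all tested genes. RPS6KA3 and RPS6KA1, both RSK kinases, fell from 451 to 230 CPM and from 104 to 64.2 CPM (log2 fold changes of -0.97 and -0.70), and RPS6KA4, an MSK kinase, rose by 0.43 on the log2 scale. On a list of 15 immediate early genes, 13 were tested and 8 rose and 3 fell (84.6% called against 56.5% of all tested genes). The median of this list was 0.27, where DUSP1, which belongs to the same class, had 0.12. ZFP36, an mRNA decay factor, rose from 22.4 ± 1.83 to 72.7 ± 1.63 CPM, FOSB from 2.82 ± 0.597 to 8.01 ± 0.245 CPM and KLF4 from 31.4 ± 0.458 to 84.6 ± 1.65 CPM. EGR1, EGR3 and FOS are on both of the last-named target lists.

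**Figure D5:**
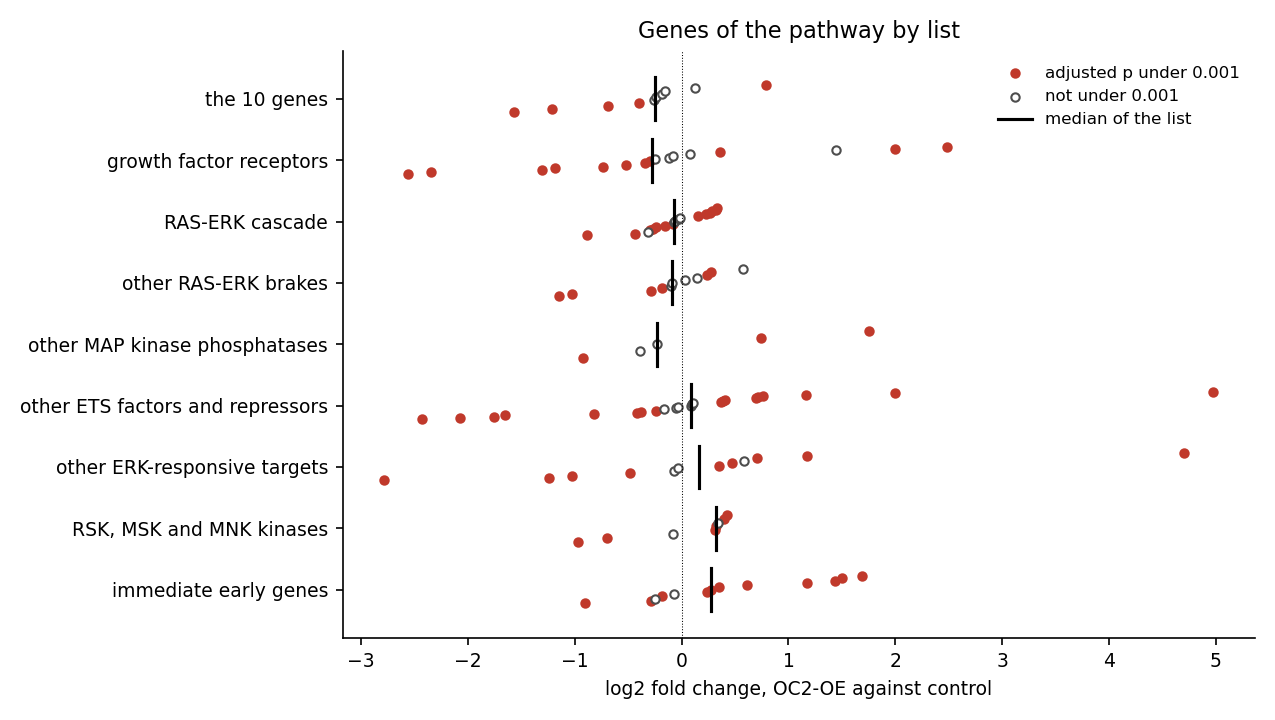
Log2 fold change in OC2-OE against control for every tested gene of each list (points, filled where the adjusted p was under 0.001), with a black line at the median of the list. The 10 genes have a median of -0.25, and of the lists drawn here those of receptors, ETS factors and ERK-responsive targets spread widest, up to 4.98 for EHF.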

How the data were processed

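RNA was measured in 3 control and 3 OC2-OE libraries of DMS53 cells, made from poly(A) RNA with a stranded kit. Per the file headers, the authors counted read pairs on the exons of each gene of GENCODE release 42 (GRCh38) with featureCounts, by strand, and the deposited values are raw counts without normalization or filter. The submitters' processing notes also list FastQC version 0.11.8, STAR version 2.7.9a and featureCounts version 1.6.0. Pairs that overlap several genes or map to several places are left out of such counts by default, which lowers genes with close copies.

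Symbols were matched by identifier for 62625 of 62696 genes. Counts were normalized by TMM and filtered with filterByExpr in edgeR version 4.0.16 (R version 4.3.3), and the groups were compared by the quasi-likelihood test with robust dispersion, no replicate term and Benjamini-Hochberg adjustment over 17307 genes, at the threshold of 0.001 that the study used. The SE was taken as the size of the log2 fold change divided by the root of F, and intervals are at 95%. The ratios of 2 genes used counts + 0.5. The totals per library limit the precision of low genes, and errors cover the spread between the libraries only. Of these steps only the edgeR fit was tested on simulated counts. It recovered 91 of 100 genes changed by 1 on the log2 scale and 100 of 100 changed by 2. None of the unchanged genes was called. Most genes were unchanged there, unlike in these data, so scaling under widespread change was not tested.

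The 10 genes, the lists and the tests were chosen with earlier results of these data known, so no list is independent evidence. On each list the 3 genes that moved farthest are named, among those under 0.001 whose log2 CPM averaged 0 or more, and for SPRY1 the 3 genes nearest in pattern; others are named as stated. The alternatives were DESeq2 size factors, upper-quartile and library-size scaling, limma voom (version 3.58.1), the Wald test in DESeq2 (version 1.42.0), no filter, a minimum of 10 counts per library, ONECUT2 removed, a replicate block, each library left out, an adjusted p under 0.05, a minimum log2 fold change of 1 and, for the ratios, counts + 5. One gene of the cascade list is counted with its list and not reported here by itself.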

Additional observations from a re-analysis of the deposited data

How the results depend on the processing

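SPRY1, DUSP6, ETV4, SPRED1 and DUSP4 passed 0.001 in the same direction under all 15 alternatives of normalization, test, filter and libraries, with log2 fold changes of -1.69 to -1.48, -1.22 to -1.16, -0.74 to -0.63, -0.44 to -0.33 and 0.75 to 0.84. DUSP1 passed with upper-quartile normalization (0.16), library size only (0.17) and without OC2-OE replicate 2, and ran from 0.11 to 0.15 over the fits that omit 1 library. Those 2 scalings moved the median of all tested genes to 0.05 and 0.06. Leaving out single libraries put SPRY4 between -0.29 and -0.19. The difference between groups in the log2 ratio of SPRY4 to SPRY2 changed sign without control replicate 1 or OC2-OE replicate 1 and ran from -0.10 to 0.12. At an adjusted p under 0.05, 12354 of all 17307 tested genes (71.4%) passed, 9 of the 10 genes and 5 of the 5 other MAP kinase phosphatases tested. With a log2 fold change of at least 1 in size, 2999 genes passed in all (17.3% of those tested), and 2 of the 10 genes. Of the tested genes on the lists, 6 of 16 receptors, 0 of 18 cascade genes, 2 of 11 other brakes and 1 of 5 other phosphatases passed. So did 7 of 23 ETS genes, 5 of 12 ERK-responsive targets, 0 of 8 RSK, MSK and MNK kinases and 4 of 13 immediate early genes. A fold limit can only lower a count. Same-numbered libraries hardly deviated together, with correlations of 0.000708, 0.0242 and 0.0176 over 11198 genes. Control replicates 2 and 3 correlated best with the OC2-OE replicate of the same number, and control replicate 1 with OC2-OE replicate 3. All correlations between the groups were small, from -0.0227 to 0.0242, so the numbers were not taken as pairs. With the replicate block 9642 genes passed in place of 9776, and 5 of the 10 genes as before. Depth limits SPRY2 most.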

Other observations

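Several ETS factors outside the rule for named genes, chosen after their values were seen, changed with OC2-OE. ETS2, the relative of ETS1, fell from 468 ± 7.12 to 149 ± 0.977 CPM (SD of 3 libraries), and ELF4 from 64.4 ± 1.56 to 36.5 ± 0.568 CPM. ELF3, like EHF an epithelial factor, rose from 148 ± 2.23 to 243 ± 2.84 CPM, and ELK3, a partner of serum response factor, from 10.1 ± 0.242 to 22.6 ± 1.55 CPM. ETV7, which interferon induces, rose from 70 counts in the control libraries to 297 in the OC2-OE libraries. In each of these genes all OC2-OE libraries lay on one side of all control libraries, where 73.2% of all tested genes did so. Each passed 0.001 in the edgeR test, as did 56.5% of all tested genes and 17 of the 23 genes on this list. The other 6 on the list did not pass. Since these genes were picked for their change, their passing is no separate result.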
